A study of Mus musculus with 8 samples.

Results

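The genes described here encode the proteins of the cytosolic ribosome, measured in mouse pancreas with and without an induced loss of Sel1L. They were taken by symbol, as genes named Rpl or Rps with a number. At most 1 of the suffix letters a, l, x or y and at most 1 more digit could follow. Rplp0, Rplp1, Rplp2 and Rpsa were added, and symbols with -ps, which mark pseudogenes, were left out. Features were not placed on the genome, so a value can come from the named gene or from a pseudogene copy of it. The rule gave 74 of the 18820 genes tested, namely 42 of the large (60S) subunit, 25 of the small (40S) subunit and 7 paralogs or gene copies. A list of 79 standard genes of the mouse ribosome holds 67 of them. Of the 12 others, Fau had a feature of its own outside the symbol rule, Rpl32, Rpl37a and Rps16 had only features annotated to several genes, and 8 were not analysed here.

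Each ribosome carries 1 copy of nearly every ribosomal protein, joined to ribosomal RNA in the nucleolus, so cells make these proteins in matched amounts. Their mRNAs are short, very abundant and begin with a run of pyrimidines, the terminal oligopyrimidine (TOP) tract, through which the mTORC1 kinase and the RNA-binding protein Larp1 set their translation and stability. Acinar cells of the pancreas are packed with ribosomes on the endoplasmic reticulum (ER), where digestive enzymes are made. Sel1L is the adaptor that holds the ubiquitin ligase Hrd1 in the pathway that removes misfolded proteins from that organelle.

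Total RNA of 4 Sel1L knockout and 4 wild type pancreas samples, labelled as C57BL/6J, was hybridised to 8 whole-transcript arrays. Knockout mice were Sel1L fl/fl with exon 6 of the gene floxed, and carried ERCre, a fusion of the estrogen receptor and Cre under an actin promoter that is active well beyond the pancreas. Wild type in the labels means fl/fl littermates without ERCre. The floxed allele came from C57BL/6N embryonic stem cells, and its selection cassette had been removed with FLPe. Both groups were 8 to 20 weeks old and received tamoxifen on 3 days, so loss of Sel1L and Cre activity cannot be told apart. The labels number 4 samples in each group without stating that each is a separate animal, so p-values measure only the spread between these samples.

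All values are the authors' robust multi-array average (RMA) values, taken as log2, and a difference is knockout minus wild type on that scale. Sel1l had log2 levels of 11.68, 11.66, 11.70 and 11.45 in knockout pancreas, against 12.37, 12.38, 12.38 and 12.39 in wild type, a difference of -0.76 (SE 0.0788, limma adjusted p = 0.000196), and the groups did not overlap (p = 0.0286 by an exact permutation test, two-sided, which is the lowest value possible with 4 arrays a group). Where in Sel1l the probes of its feature lie relative to exon 6 was not analysed here. Array medians over all features lay between 4.9976 and 5.05 in knockout and between 4.94 and 4.99 in wild type. The mean of 19 acinar markers measured lay between 12.75 and 12.85 in knockout arrays and between 12.99 and 13.12 in wild type arrays, with 12 of the 19 lower, 1 higher and none of them below the median level of all genes. For this and the next lists, 16.1% of all genes were higher and 12.6% lower. Of the 100 genes at a level of 12 or more, 18% were higher and 29% lower. Of 10 endothelial markers 6 were higher and 0 lower (7 and 0 at an unadjusted p under 0.05), with array means of 7.11 to 7.33 in knockout and 6.81 to 7.03 in wild type and 1 marker below the median level. Of the other marker lists, duct cells had 3 of 10 higher and 1 lower, islet cells 2 of 14 and 1, lymphocytes 0 of 13 and 2 with 12 of them below the median level, and macrophages, fibroblasts and adipocytes 0 called of 16, 15 and 6 (limma, with 0, 4 and 1 at an unadjusted p under 0.05). Of 2 red blood cell markers, both below the median level, Slc4a1 was lower, by -0.64 (limma adjusted p = 0.00379) with groups apart, and Alas2 differed by -0.88 (adjusted p = 0.0708), and array means were 4.32 to 4.88 in knockout and 5.01 to 5.91 in wild type. In wild type replicate 2 the mean of 16 macrophage markers was 5.79, against at least 7.52 in the other wild type arrays, and that of 15 fibroblast and stellate cell markers was 6.60 against at least 7.59. In bulk tissue, a changed share of a cell type and changed RNA per cell cannot be told apart, and the part of these markers in the ribosomal protein differences was not tested.

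More ribosomal protein genes rose than fell in the knockout pancreas. Of the 74, 39 were higher and 1 was lower at a limma adjusted p under 0.05 (Benjamini-Hochberg over all 18820 genes), where 16.1% of all genes tested were higher and 12.6% were lower. That is 52.7% of the members higher and 1.35% lower. The median difference of the members was 0.24, a 1.18-fold rise, against -0.037 over all genes. A positive difference was found for 64 of the 74, where 45.6% of all genes had one. In 52 members every knockout value lay above every wild type value, where this held for 17.6% of all genes, and in 1 member every knockout value lay below (14.6% of all genes). Above the median level of all genes lay 70 members, with a median difference of 0.25, against 0.13 for all 9410 genes there. A positive difference held for 63 of the 70 and 6251 of the 9410. Every knockout value lay above every wild type value in 51 and 2910 of them. The median level of the members was 11.74, 11.79, 11.76 and 11.85 on the 4 knockout arrays, against 11.44, 11.45, 11.48 and 11.42 on the 4 wild type arrays. Wild type replicate 2, which stood apart in its macrophage and fibroblast markers, lay within the wild type range here, and without it 31 members were higher and 1 lower. The differences were small but so was the spread: the median standard deviation of a member within a group was 0.0659 in knockout and 0.0791 in wild type, against 0.121 in knockout and 0.169 in wild type over all genes. Members were brighter, at a median level of 11.64 against 5.52 for all genes, and the spread was not compared at like level.

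**Figure D1:**
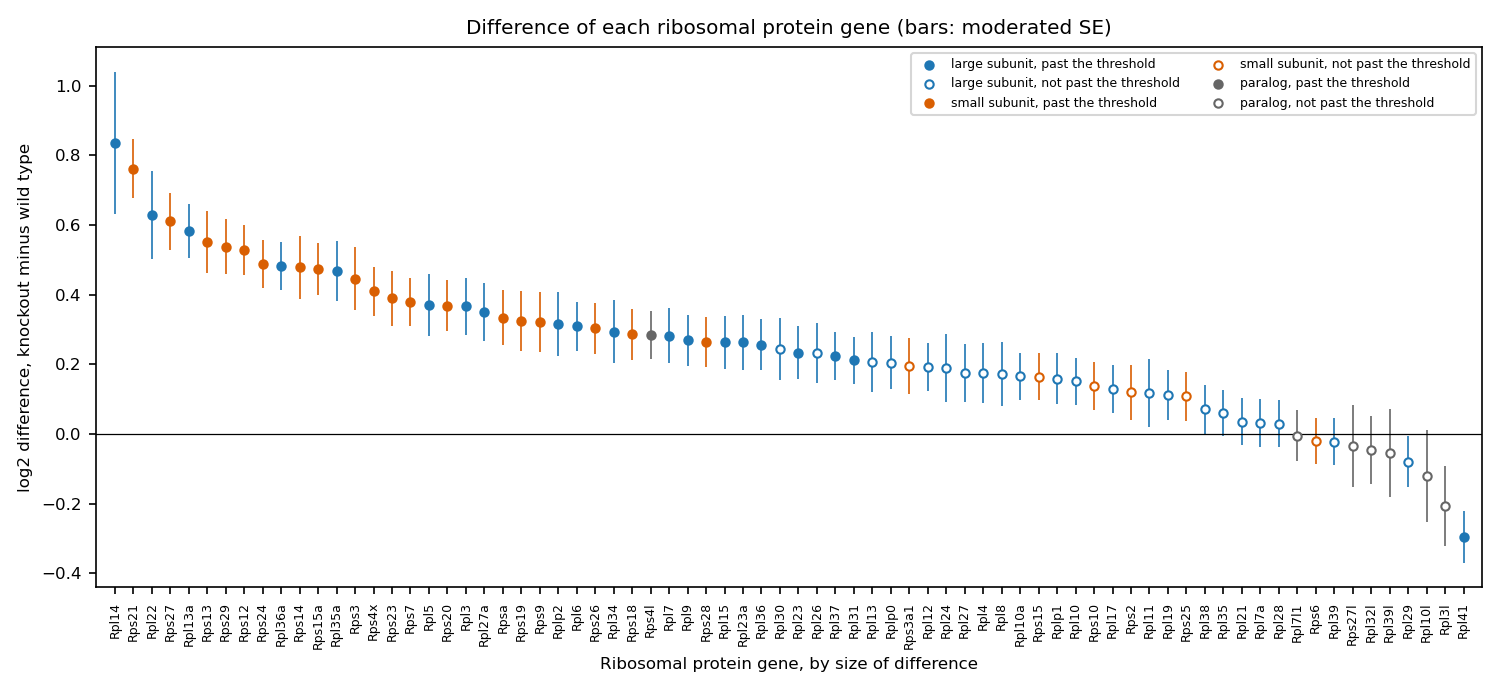
The log2 difference (knockout minus wild type) of each of the 74 genes, ordered from the largest to the smallest, with the moderated standard error as bars and filled points for genes past the adjusted p threshold. The series runs from Rpl14 at 0.84 to Rpl41 at -0.30, and 64 points lie above 0.

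Genes of both subunits rose. Of the 25 small-subunit genes 19 were higher and 0 lower (21 and 0 at an unadjusted p under 0.05), with a median difference of 0.37. Of the 42 large-subunit genes 19 were higher and 1 lower, with a median of 0.21. The median level of the small-subunit genes was 11.74, 11.73, 11.68 and 11.83 in knockout, against 11.39, 11.40, 11.28 and 11.36 in wild type, and that of the large-subunit genes was 12.11, 12.16, 12.09 and 12.12 in knockout, against 11.96, 11.95, 11.98 and 11.87 in wild type. The groups did not overlap in either, and the difference between the subunits was not tested.

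The largest difference was that of Rpl14, a protein on the surface of the large subunit. Its log2 levels were 7.45, 8.09, 7.95 and 8.16 in knockout pancreas, against 6.56, 7.33, 7.03 and 7.38 in wild type. The groups were apart, but the spread was the widest among the 12 largest rises: Rpl14 averaged 7.91 ± 0.322 in knockout and 7.07 ± 0.375 in wild type pancreas (SD, n = 4 each), and it rose by 0.84 (SE 0.205, limma adjusted p = 0.0149), a 1.78-fold rise. Rps21, a small-subunit protein that sits beside Rpsa, had levels of 9.80, 9.92, 9.75 and 9.97 in knockout pancreas, against 9.05, 9.20, 9.13 and 8.9998 in wild type. It rose by 0.76 (SE 0.0836, limma adjusted p = 0.000263), 1.70-fold, and its second feature, dimmer at a mean of 7.30, differed by 0.76. Rpl22, which also binds cellular mRNAs and is needed for the development of T cells in mice, had levels of 7.79, 7.91, 7.72 and 8.03 in knockout pancreas, against 7.53, 7.30, 7.15 and 6.95 in wild type. It rose by 0.63 (SE 0.128, limma adjusted p = 0.00631), with its highest wild type array at 7.53 and its lowest knockout array at 7.72.

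Rps27 and Rps29 are small zinc-binding proteins of the 40S subunit. Rps27 had levels of 9.84, 9.85, 9.77 and 10.04 in knockout pancreas, against 9.24, 9.32, 9.22 and 9.26 in wild type, and rose by 0.61 (SE 0.0816, limma adjusted p = 0.00076). Rps29 had levels of 11.07, 11.18, 11.08 and 11.20 in knockout pancreas, against 10.59, 10.71, 10.59 and 10.48 in wild type, and rose by 0.54 (SE 0.079, limma adjusted p = 0.00126). In both, the lowest knockout array lay clear of the highest wild type array by more than the range within either group of 4. Rpl13a, which leaves the ribosome to silence mRNAs of inflammation in interferon-treated human cells, had the third largest rise among large-subunit genes. Its levels were 12.65, 12.70, 12.57 and 12.70 in knockout pancreas, against 12.08, 12.03, 12.20 and 11.97 in wild type, and it rose by 0.58 (SE 0.0785, limma adjusted p = 0.000787).

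Promoter starts of genes at both ends of this range are shown so that genes that rose, fell or had differences near 0 can be compared. Since features were not placed on the genome, a difference need not come from the gene at the printed start. The sequences are RefSeq's, build GRCm38.p6, 60 bases before and 15 after the annotated start, 75 bases in all and 5′ to 3′ on the gene's strand. Capitals mark a run of at least 8 pyrimidines or the letters CGGAAG (reverse complement CTTCCG), a core that transcription factors of the ETS family can bind. The 4 genes that rose are Rpl14 (chr9:120571457-120571531, plus strand), Rps21 (chr2:180257319-180257393, plus strand), Rps27 (chr3:90213634-90213708, minus strand) and Rpl13a (chr7:45128731-45128805, minus strand). Rpl41, at chr10:128549154-128549228, minus strand, is the gene that fell, and Rps6, at chr4:86857353-86857427, minus strand, and Rpl28, at chr7:4792905-4792979, plus strand, had differences near 0.
Rpl14: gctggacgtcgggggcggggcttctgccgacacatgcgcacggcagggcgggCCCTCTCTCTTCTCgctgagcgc
Rps21: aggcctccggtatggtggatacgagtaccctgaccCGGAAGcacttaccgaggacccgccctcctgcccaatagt
Rps27: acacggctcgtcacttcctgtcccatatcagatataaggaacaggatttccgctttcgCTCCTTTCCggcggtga
Rpl13a: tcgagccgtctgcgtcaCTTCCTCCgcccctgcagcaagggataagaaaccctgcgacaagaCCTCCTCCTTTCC
Rpl41: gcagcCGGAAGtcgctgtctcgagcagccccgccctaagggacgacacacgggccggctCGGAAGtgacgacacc
Rps6: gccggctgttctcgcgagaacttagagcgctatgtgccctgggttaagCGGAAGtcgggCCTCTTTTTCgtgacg
Rpl28: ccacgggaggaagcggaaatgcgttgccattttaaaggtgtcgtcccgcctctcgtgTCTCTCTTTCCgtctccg

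RefSeq's table held a promoter for 60 of the 74 genes, and where it gave several starts the one furthest upstream was used. A run of at least 8 pyrimidines on the sense strand, from 50 bases before to 50 after the start, was present in 46 of the 60 (76.7%), against 35.7% of 27025 promoters. CGGAAG on either strand of the promoter window was present in 40 (66.7%), against 17.2% of promoters, and the 2 searches can overlap, since a pyrimidine run may end in CTTCC. The letters AAGATGGC (reverse complement GCCATCTT) on either strand were present in 6 (10%), against 2.9% of promoters. By motif, 24 of 46 genes with the pyrimidine run were higher and 7 of 14 without it, and 20 of 40 with CGGAAG were higher and 11 of 20 without it. For AAGATGGC the counts were 5 of 6 with it and 26 of 54 without it. The printed starts of Rpl28 and Rps6 carry the pyrimidine run as Rpl14 does. After the start, the printed stretches are shorter than the 50 bases searched, so they do not show every match counted. Those of Rps21 and Rpl41 show no pyrimidine run, but both genes had one in the searched window and are among the 46. Likewise, Rps27 is among the 40 with CGGAAG, which its printed stretch does not show. These matches describe letters in a window, not sites in use.

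The other 6 of the 12 largest rises were nearly alike in size, between 0.47 and 0.55, and each had groups that did not overlap. Rps13, a small-subunit protein near the subunit interface, had levels of 10.44, 10.63, 10.57 and 10.73 in knockout pancreas, against 9.91, 10.09, 10.07 and 10.09 in wild type, and rose by 0.55 (SE 0.0882, limma adjusted p = 0.00194). Rps12 had levels of 11.30, 11.26, 11.23 and 11.33 in knockout pancreas, against 10.71, 10.84, 10.77 and 10.68 in wild type, and rose by 0.53 (SE 0.0722, limma adjusted p = 0.000845). Rps24, one of the genes mutated in the human disorder Diamond-Blackfan anaemia, had levels of 11.40, 11.40, 11.35 and 11.41 in knockout pancreas, against 10.81, 10.94, 10.91 and 10.95 in wild type, a within-group SD of 0.029 in knockout and 0.062 in wild type, and rose by 0.49 (SE 0.0699, limma adjusted p = 0.00111). Rpl36a, of the large subunit, had levels of 12.08, 12.12, 12.02 and 12.09 in knockout pancreas, against 11.61, 11.56, 11.61 and 11.60 in wild type, and rose by 0.48 (SE 0.0677, limma adjusted p = 0.000994). Rps14, whose human counterpart is lost in the anaemia of the 5q deletion, had levels of 11.79, 11.73, 11.64 and 11.83 in knockout pancreas, against 11.39, 11.34, 11.28 and 11.08 in wild type, and rose by 0.48 (SE 0.0898, limma adjusted p = 0.00436). Rps15a had levels of 10.39, 10.46, 10.37 and 10.54 in knockout pancreas, against 10.01, 9.98, 9.99 and 9.89 in wild type, and rose by 0.47 (SE 0.0746, limma adjusted p = 0.0018). In all 6 the 4 knockout arrays clustered more tightly than the distance between the groups.

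**Figure D2:**
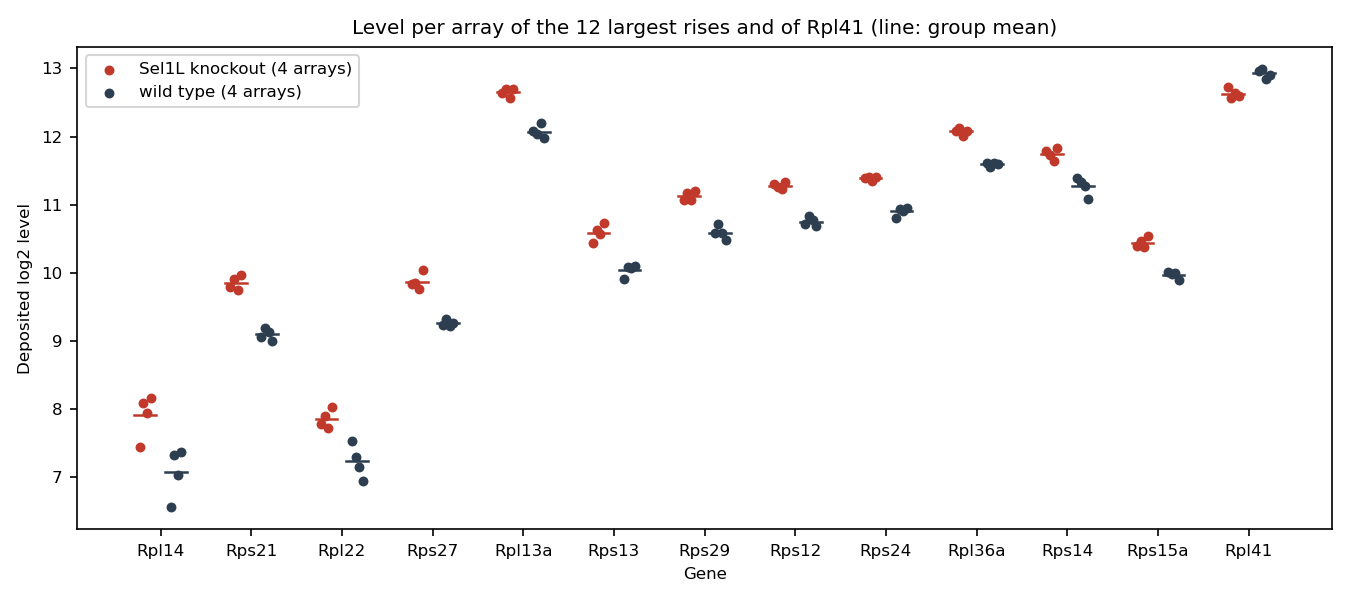
The deposited log2 level of the 12 genes with the largest rises and of Rpl41 on each array, with knockout points left of wild type points and a line at each group mean (4 arrays each). For the 12 rises all knockout points lie above all wild type points, and for Rpl41 all lie below.

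Some further members were picked after their values were seen. Around the decoding centre and the mRNA channel, the 40S genes Rps3, Rps20 and Rps23 rose by 0.45, 0.37 and 0.39 (SE 0.0903, 0.0735 and 0.0788). Rps2 and Rps15, of the same subunit, differed by 0.12 (SE 0.0791, limma adjusted p = 0.27) and 0.16 (SE 0.0673, limma adjusted p = 0.0933) and did not pass. Rpl3, which shapes the peptidyl transferase centre, rose by 0.37 (SE 0.0819, limma adjusted p = 0.0097), and Rpl10, which completes the large subunit, differed by 0.15 (SE 0.0682, limma adjusted p = 0.12). Rpsa, also known as the laminin receptor precursor, rose by 0.33 (SE 0.0801, limma adjusted p = 0.0132). Rps19, the gene most often mutated in Diamond-Blackfan anaemia, rose by 0.32 (SE 0.0852, limma adjusted p = 0.0194), with a call lost under 3 of the 16 other settings tried. The remaining called members rose by between 0.21 (Rpl31, called under 4 of the 16 other settings) and 0.47 (Rpl35a).

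The acidic stalk recruits elongation factors to the large subunit through Rplp0, Rplp1 and Rplp2. Rplp0 had levels of 13.18, 13.19, 13.28 and 13.28 in knockout pancreas, against 13.02, 12.94, 13.15 and 12.99 in wild type, a difference of 0.21 (SE 0.0763, limma adjusted p = 0.0696). Rplp1 had levels of 13.26, 13.22, 13.23 and 13.26 in knockout pancreas, against 13.12, 13.13, 13.13 and 12.95 in wild type, a difference of 0.16 (SE 0.0735, limma adjusted p = 0.129). The groups were apart in both, and neither passed the threshold. Rplp1 also had a feature at a mean level of 10.5 that differed by -0.56, with overlapping groups and an adjusted p of 0.219 over all single-symbol features. Rplp2 was read at a mean of only 5.18, below the median level of all genes (5.52), with values of 5.24, 5.48, 5.29 and 5.36 in knockout pancreas, against 4.89, 4.96, 5.19 and 5.06 in wild type, and rose by 0.32 (SE 0.0926, limma adjusted p = 0.0307), a call that held in 5 of the 15 other settings with a value for it (highest adjusted p 0.138). A feature shared with Wdr89, slightly brighter at a mean of 5.42 but also below that median level, differed by 0.38 (limma adjusted p = 0.00794).

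Rpl5 and Rpl11 carry 5S ribosomal RNA into the large subunit and, when ribosome assembly fails, bind Mdm2, the ligase that keeps p53 low. Rpl5 had levels of 11.9959, 11.92, 11.92 and 11.9996 in knockout pancreas, against 11.77, 11.53, 11.64 and 11.42 in wild type, and rose by 0.37 (SE 0.0891, limma adjusted p = 0.0136). Rpl11 had levels of 11.34, 11.29, 11.24 and 11.46 in knockout pancreas, against 11.39, 11.14, 11.31 and 11.03 in wild type, and its difference of 0.12 (SE 0.0983, limma adjusted p = 0.383) did not pass. Their difference from each other was not tested. In the list of genes that link ribosomal proteins to p53, 7 of 13 measured were higher and 0 lower (8 and 0 at an unadjusted p under 0.05), with a median of 0.31. That is 53.8% higher, against 16.1% of all genes and 27.9% of genes above the median level, where all 13 lay. Cdkn1a, the p53 target that stops the cell cycle, rose by 2.26 (SE 0.239, limma adjusted p = 0.000215), Nop53 rose by 0.54 (SE 0.0819, limma adjusted p = 0.00146), Tsr2, the chaperone of Rps26, rose by 0.45 (SE 0.0798, limma adjusted p = 0.0031), and Mdm4 rose by 0.42 (SE 0.0822, limma adjusted p = 0.00567). Rpl5 and Rpl23, which are members, are among the 7.

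The single fall was in Rpl41, which encodes the smallest ribosomal protein, a short peptide of basic residues. Its levels were 12.72, 12.56, 12.64 and 12.60 in knockout pancreas, against 12.96, 12.99, 12.85 and 12.90 in wild type. Every knockout array lay below every wild type array, and Rpl41 averaged 12.63 ± 0.0676 in knockout and 12.93 ± 0.0625 in wild type pancreas (SD, n = 4 each), a difference of -0.30 (SE 0.074, limma adjusted p = 0.0159). Of its 5 features 3 held identical values on all 8 arrays, and the other two differed by -0.22 (adjusted p = 0.0473) and -0.18 (adjusted p = 0.0778). The fall passed the threshold under 15 of the 16 other settings and missed it after quantile normalization (-0.22, limma adjusted p = 0.0584).

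A second set of members, on bright features, had differences near 0. Rps6, the 40S protein phosphorylated by the S6 kinases downstream of mTORC1, had levels of 13.05, 13.09, 13.13 and 13.12 in knockout pancreas, against 13.16, 13.10, 13.10 and 13.12 in wild type, a difference of -0.020 (SE 0.0671, limma adjusted p = 0.838). Rpl28 had levels of 12.97, 13.0015, 12.97 and 13.06 in knockout pancreas, against 12.97, 13.0023, 12.99 and 12.93 in wild type, a difference of 0.029 (SE 0.0675, limma adjusted p = 0.765). For Rpl29, a heparin-binding protein of the large subunit, the levels were 12.69, 12.73, 12.61 and 12.72 in knockout pancreas, against 12.85, 12.76, 12.73 and 12.71 in wild type, with overlapping groups. The difference of Rpl29 was -0.079 (SE 0.0723, limma adjusted p = 0.425). Rpl7a and Rpl21 were 0.031 and 0.036 apart (SE 0.0694 and 0.0669), and Rpl35, Rpl38 and Rpl39 differed by 0.061, 0.070 and -0.022. These values are those of the brightest feature of each gene. The 41 features of Rpl21 differed by between -0.23 and 0.036, with 1 lower. The 8 features of Rps6 differed by between -0.21 and 0.0038, with no call. On its brightest feature none of these genes passed the threshold, which does not show that the genes did not change.

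Spearman's rho between the mean level and the difference was -0.295 across all 74 members, -0.58 across the 67 standard ones, -0.58 within the large subunit (42 genes) and -0.73 within the small subunit (25 genes). This is a description across genes of the same 8 arrays, which are not independent, and a feature's level also depends on its probes. Of 13 members with a level under 10, 7 were higher, with a median difference of 0.28. Of all 18215 genes under 10, 15.8% were higher and 12.4% lower, with a median of -0.039. Of 31 members with a level between 10 and 12, boundaries chosen after the values were seen, 21 were higher, with a median difference of 0.31. Of 30 members at 12 or more, 11 were higher and 1 lower, with a median of 0.16. Members made up 30 of the 100 genes at 12 or more, and array maxima lay between 14.3 and 14.4. Among the 70 other genes at that level 7 were higher and 28 lower, with a median of -0.15, and among 474 other genes between 10 and 12, 117 were higher and 87 lower, with a median of 0.019. Whether signals this bright still follow the amount of RNA was not tested.

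**Figure D3:**
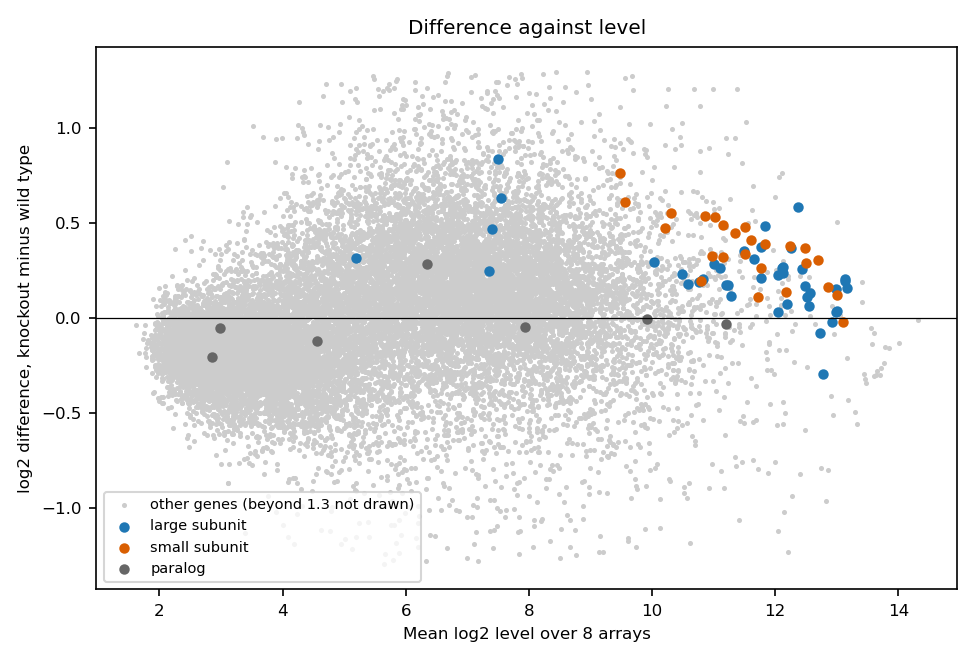
The log2 difference (knockout minus wild type) against the mean log2 level over the 8 arrays, for the members by class and for other genes in grey, of which those beyond 1.3 in either direction are not drawn. Rps21 lies at a level of 9.48 with a difference of 0.76, and Rps6 at 13.11 with -0.020.

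Ribosomal protein genes have many processed pseudogenes, and the arrays carry many features with their names. The 74 genes had 385 features with that single symbol, with up to 41 for Rpl21, 24 for Rpl29, 18 for Rps2 and 17 each for Rpl17 and Rpl7a. Only 375 sets of 8 values were distinct, 17 features being identical to another, so features of a gene are not independent replicates of it. Fitted one by one, 160 features were higher and 5 lower, with a median of 0.18. Over all 21218 single-symbol features 6114 were called, 56.6% of them higher, with a median of -0.033. Of the 5 lower features, 4 were of Rpl41 and 1 was of Rpl21. None of the 56 genes with more than 1 feature had calls in both directions. All 12 features of Rps12 were higher, between 0.51 and 0.61, as were all 8 of Rpl9 and all 7 of Rps18. All 24 features of Rpl29 differed by between -0.15 and -0.043 and all 17 of Rpl7a by between -0.010 and 0.052, with no call among them. Rpl12 and Rpl31 each had 1 dim feature, at levels of 6.94 and 6.63, with differences of 0.67 and 0.73, against 0.19 and 0.21 for the brightest.

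**Figure D4:**
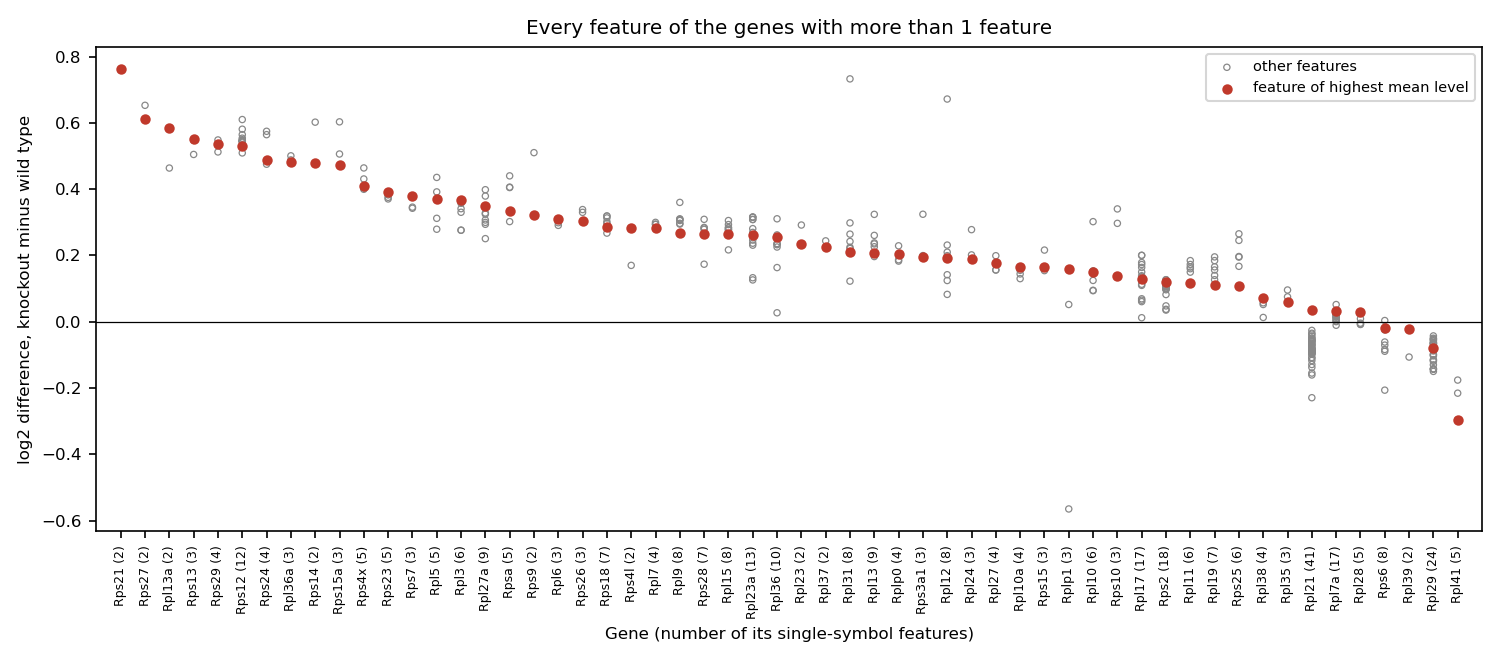
The log2 difference (knockout minus wild type) of every single-symbol feature of the 56 genes with more than 1 feature, with the number of features beside each name and the feature of highest mean level in red. Most genes form a tight column, and Rplp1, Rpl12 and Rpl31 have a feature far from the others.

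A further 62 features named a member together with another gene. Of these 40 were higher and 0 lower (adjusted p over all features with a symbol), with a median of 0.28. Among all genes tested, each by 1 feature, 16.1% were higher and 12.6% lower. Several of the 62 name the same genes, such as Gm12191 with Rpl30, so they are not independent of each other. The 62 features held 4 genes with no feature of their own, of which 3 were higher. Rpl32, on a feature shared with its copy Rpl32l, had levels of 13.0060, 13.0005, 13.0054 and 12.96 in knockout pancreas, against 13.10, 13.10, 13.04 and 13.04 in wild type. Every knockout array lay below every wild type array, and the difference of -0.077 (SE 0.0666, limma adjusted p = 0.399) did not pass. Rps16 had levels of 12.04, 12.13, 12.03 and 12.07 in knockout pancreas, against 11.69, 11.47, 11.60 and 11.46 in wild type, a difference of 0.51 (SE 0.0796, limma adjusted p = 0.00166). Rpl37a differed by 0.26 (SE 0.0811, limma adjusted p = 0.0388). Rpl22l1, the paralog that can stand in for Rpl22, had levels of 6.72, 6.88, 6.81 and 7.01 in knockout pancreas, against 6.01, 6.37, 6.45 and 6.56 in wild type, with a difference of 0.51 (SE 0.124, limma adjusted p = 0.0142), on a feature shared with the predicted gene Gm15421. The pseudogene Rps19-ps3 averaged 6.996 in knockout and 6.48 in wild type, a difference of 0.52 (limma adjusted p = 0.0241) with overlapping groups. The rise of Rpl22 itself was 0.63 and that of Rps27, whose paralog Rps27l is described next, was 0.61.

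Among the paralogs 1 of 7 was higher and 0 lower (1 and 0 at an unadjusted p under 0.05), with a median of -0.046. Rps27l, an induced target of p53, had levels of 11.14, 11.29, 10.89 and 11.41 in knockout pancreas, against 11.21, 11.30, 11.07 and 11.29 in wild type, a difference of -0.034 (SE 0.117, limma adjusted p = 0.842). Rps4l had levels of 6.47, 6.49, 6.49 and 6.53 in knockout pancreas, against 6.21, 6.27, 6.22 and 6.14 in wild type, and rose by 0.28 (SE 0.069, limma adjusted p = 0.0144), beside its parent gene Rps4x, which had 11.74, 11.83, 11.80 and 11.90 in knockout pancreas, against 11.40, 11.42, 11.45 and 11.36 in wild type, and rose by 0.41 (SE 0.071, limma adjusted p = 0.0029). Rpl7l1, a factor of ribosome assembly, had levels of 9.82, 9.93, 9.92 and 10.01 in knockout pancreas, against 9.96, 9.87, 9.94 and 9.93 in wild type, a difference of -0.0045 (SE 0.0734, limma adjusted p = 0.967), while Rpl7, at 11.11, 11.13, 11.06 and 11.28 in knockout pancreas, against 10.82, 10.86, 10.96 and 10.81 in wild type, rose by 0.28 (SE 0.0796, limma adjusted p = 0.0263). The call of Rpl7 held in 8 of the 16 other settings (highest adjusted p 0.161) and that of Rps4l in 12 (highest 0.262), and the difference between Rpl7 and Rpl7l1 was not tested.

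The paralogs known from muscle and testis were dim. Rpl3l, of striated muscle, was read at 2.70, 2.79, 2.82 and 2.68 in knockout pancreas, against 3.16, 2.95, 3.07 and 2.64 in wild type, Rpl10l, of testis, at 4.31, 4.62, 4.58 and 4.51 in knockout pancreas, against 4.44, 4.68, 4.96 and 4.41 in wild type, and Rpl39l, also of testis, at 2.99, 3.03, 2.73 and 3.08 in knockout pancreas, against 3.31, 2.94, 3.03 and 2.77 in wild type. All lay below the median level of all genes and had overlapping groups. Their parent genes Rpl3, Rpl10 and Rpl39 were at 12.26, 12.98 and 12.92 over the 8 arrays, and levels of different features are not to be ranked against each other. Rpl32l, a copy of Rpl32, had levels of 7.99, 7.66, 8.04 and 7.94 in knockout pancreas, against 7.97, 7.98, 8.02 and 7.85 in wild type, a difference of -0.046 (SE 0.0969, limma adjusted p = 0.738).

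Introns of ribosomal protein genes hold small nucleolar RNAs (snoRNAs), which guide the chemical modification of ribosomal RNA and are cut from the spliced-out intron. RefSeq places 51 snoRNA genes within members, and 15 of them, in 13 host genes, had a feature of their own. Of these 1 was higher and 0 lower (2 of either direction at an unadjusted p under 0.05), where 16.1% of all genes were higher and 12.6% lower. Of the 13 hosts 8 were higher, and snoRNAs were not tested against their hosts. Standard errors of the snoRNAs reached 0.228 (Snora33), and Snord58b and Snord73a lay at 3.63 and 3.93, below the median level of all genes. The snoRNA differences lay between -0.40 and 0.45, with a median of 0.17 and 11 above 0. Snord35a, in an intron of Rpl13a, had values of 8.48, 8.39, 8.14 and 8.09 in knockout, against 7.93, 7.80, 7.66 and 7.91 in wild type, a difference of 0.45 (SE 0.111, limma adjusted p = 0.0148). Snora52, within Rplp2, differed by -0.033 (SE 0.0839, limma adjusted p = 0.784).

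Many genes that build ribosomes were higher. Of 56 ribosome biogenesis factors measured, 27 were higher and 0 lower (32 and 1 at an unadjusted p under 0.05), with a median of 0.27, a share of 48.2% higher, against 27.9% of genes above the median level. Ddx56, a nucleolar RNA helicase, rose by 0.88 (SE 0.112, limma adjusted p = 0.000596). Ncl, the gene of nucleolin, rose by 0.60 (SE 0.0807, limma adjusted p = 0.000768), Nop10, of the particles that make pseudouridine in ribosomal RNA, rose by 0.52 (SE 0.0748, limma adjusted p = 0.00117), and Pes1, which matures the large subunit, rose by 0.67 (SE 0.0995, limma adjusted p = 0.00133). Of 30 genes of RNA polymerases I and III and their regulators 9 were higher and 3 lower, with a median of 0.14. These shares of 30% and 10% are near those of all genes above the median level, 27.9% higher and 10.8% lower. Taf1a, which brings polymerase I to ribosomal DNA, rose by 0.77, Polr3c, a subunit of polymerase III, by 0.59, and Maf1, a repressor of polymerase III, by 0.59, while Mycn fell to 5.58 in knockout, against 6.37 in wild type (difference -0.79 (SE 0.092, limma adjusted p = 0.000358)).

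Among elongation factors and other genes with TOP mRNAs 4 of 18 were higher and 0 lower (5 and 0 at an unadjusted p under 0.05), with a median of 0.14, a share of 22.2%, against 16.1% of all genes and 27.9% of genes above the median level. Eef1b2, of the complex that recharges the elongation factor, rose by 0.50 (SE 0.0795, limma adjusted p = 0.00187), and Eif3e, Eif3f and Eef1d rose by 0.54, 0.49 and 0.40. Of 18 genes of ribosome rescue and recycling 8 were higher and 1 lower (44.4% higher). Ascc1 rose by 0.82, Eif2d by 0.57, Nemf, which marks stalled chains on 60S subunits, by 0.51 and Hbs1l, which helps free stalled ribosomes, by 0.44. Of the regulators of TOP mRNAs 1 of 17 was higher and 2 were lower, with a median of 0.0095. Larp1, the TOP-binding protein, was at 10.44, 10.55, 10.58 and 10.53 in knockout pancreas, against 11.02, 10.99, 10.93 and 10.97 in wild type, a difference of -0.45 (SE 0.0704, limma adjusted p = 0.00166). Rps6kb2, an S6 kinase, differed by -0.33 (SE 0.0793, limma adjusted p = 0.013), and Cnbp rose by 0.35 (SE 0.0953, limma adjusted p = 0.0234). Fau, which encodes another 40S protein fused to a ubiquitin-like one, differed by 0.20 (SE 0.079, limma adjusted p = 0.0798).

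Set beside like families, the cytosolic ribosomal protein genes had a share of rises of 52.7%, against 40.5% of 74 mitochondrial ribosomal protein genes (30 higher, 2 lower), 24.5% of 49 translation initiation factor genes (12 higher, 5 lower) and 31.6% of 38 proteasome subunit genes (12 higher, 1 lower). Median differences were 0.24, 0.24, 0.15 and 0.25 in that order, so the typical size was near the same in 3 of the 4 families. Of all genes above the median level 27.9% were higher, with a median difference of 0.13. These families were described and not tested against each other.

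**Figure D5:**
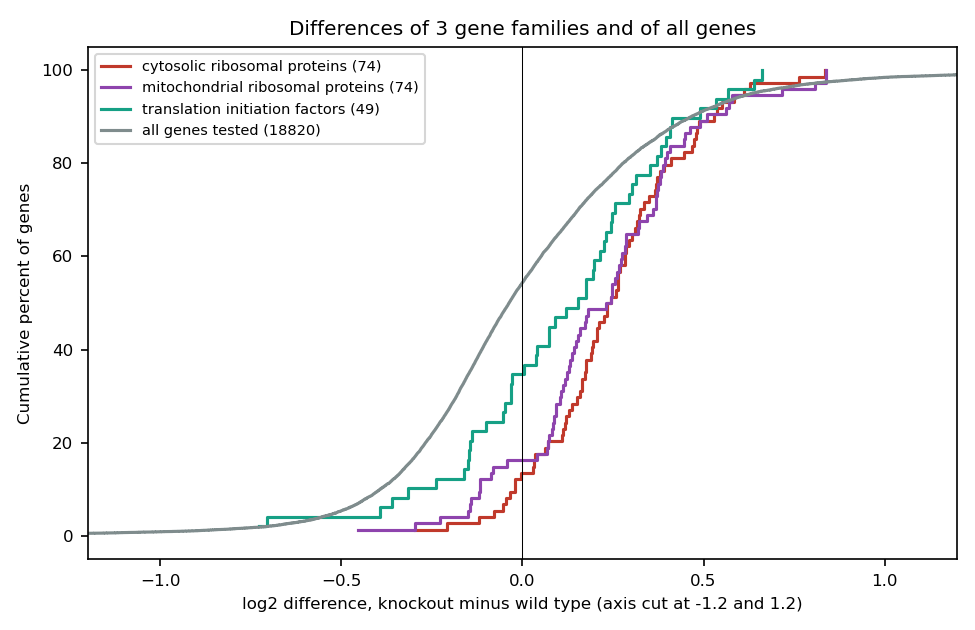
The cumulative percent of genes against the log2 difference (knockout minus wild type) for 3 gene families and for all 18820 genes, with the axis ended at -1.2 and 1.2. The curves of cytosolic and mitochondrial ribosomal proteins cross the middle near 0.24, and that of all genes near -0.037.

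The number of calls depended on how the arrays were put on 1 scale. Of all calls, 56.0% were higher with no rescaling, 42.9% with quantile normalization, 48.1% after cyclic loess and 36.3% after centring each array on its median over all features. The members called higher and lower were 39 and 1 with no rescaling, 28 and 0 after quantile normalization, 29 and 1 after cyclic loess and 24 and 1 after centring, with medians of 0.24, 0.21, 0.21 and 0.16. The median stayed above that of all genes under each (-0.037, -0.048, -0.017 and -0.11). Among genes above the median level of all genes, 54.3% of 70 members were higher, against 27.9% of 9410 genes. With no rescaling the median differences there were 0.25 and 0.13. Leaving out 1 array left at least 26 members higher, the fewest without knockout replicate 2, and 27 without knockout replicate 4. Calls for 20 members held in all 16 other settings that gave a value for each gene. They were 13 of the 25 small-subunit genes and 7 of the 42 large-subunit genes, and include the 12 largest rises. All values are relative to the other signals of an array, so they do not tell the total amount of ribosomal protein mRNA per cell.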

How the data were processed

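RNA of 8 pancreas samples was measured on 1 array each, from 100 ng of total RNA made into whole-transcript cDNA, per the labels' protocols. The authors deposited 1 log2 value per feature and array, made with RMA per the submitters' processing notes. The RMA version, chip file and build were not stated in the labels, and base 2 was inferred from the range of the values. Of 35556 features, GEO's platform annotation named 1 gene for 21218, several for 1881 and none for 12457. Each gene was represented by its brightest single-symbol feature over the 8 arrays, which gave 18820 genes. Entrez identifiers of 21185 features were found in the RefSeq table (GRCm38.p6), which changed 0 symbols.

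Genotype was fitted with limma 3.58.1 (lmFit, eBayes, 6 residual degrees of freedom, R 4.3.3), with Benjamini-Hochberg adjustment over all genes and a threshold of 0.05. Errors are moderated standard errors. The number of arrays limits the precision. The computation was tested on simulated data. Members, lists, motifs and the naming rule (per-array values for the 12 largest rises, the 4 lowest differences, paralogs with their parent genes, stalk and 5S genes, and up to 4 genes per other list by smallest p) were chosen with earlier results of these data known; near-zero members, Rps2, Rps3, Rps15, Rps20, Rps23, Rpl3, Rpl10, Rpsa and Rps19 were named after their values were seen. Lists were not tested as sets. Alternatives were quantile normalization, median centring, cyclic loess, a level filter, other features per gene, other variance models, array weights, the replicate number as a block, a stricter threshold and leaving out each array. Figures were drawn with matplotlib 3.10.9.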

Additional observations from a re-analysis of the deposited data

Results flagged for a closer look

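A lone array stood apart from the other 3 of its group in 7 of 150 groups of 4 by Dixon's test, where chance flags about 1 in 20 groups. Sel1l was 11.45 in knockout replicate 4, against 11.66 to 11.70 in the others. Rps13 was 9.91 in wild type replicate 1, against 10.07 to 10.09 in the others. Rps26 was 12.43 in wild type replicate 1, against 12.57 to 12.59 in the others. Rpl36 was 12.48 in knockout replicate 3, against 12.58 to 12.59 in the others. Rpl26 was 10.52 in wild type replicate 1, against 10.3059 to 10.3149 in the others. Rplp1 was 12.95 in wild type replicate 4, against 13.12 to 13.13 in the others. Rpl21 was 12.96 in wild type replicate 4, against 12.9956 to 13.0006 in the others. Without wild type replicate 1, in which Rps13 and Rps26 lay low and Rpl26 high, Rps13 and Rps26 differed by 0.51 (limma adjusted p = 0.00547) and 0.27 (limma adjusted p = 0.0287), and Rpl26 by 0.29 (limma adjusted p = 0.0352).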

How the results depend on the processing

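The 39 rises and the fall of Rpl41 kept their direction under each of the 16 settings that gave the gene a value (15 for Rplp2, which the level filter left out), and 20 rises passed the threshold under all of them, while 13 of 34 uncalled members passed under at least 1. Centring each array on its median left 24 members higher, with a median of 0.163. At an adjusted p under 0.01, 18 members were higher and 0 lower, of 2555 genes called. With every feature by itself 160 features were higher and 5 lower, with a median of 0.185, against -0.033 over all 21218 features. Of these 6114 were called, 56.6% of them higher. After quantile normalization 0 members were lower. Leaving out 1 array at a time gave 26 to 38 members higher, 1 to 2 lower, medians of 0.212 to 0.260, 3721 to 5227 genes called and Sel1l differences of -0.782 to -0.701; the second member lower was Rpl3l, without wild type replicate 4 (-0.31, adjusted p = 0.0309). With the replicate number as a block, although same-numbered arrays did not deviate together in all pairs (correlations 0.222, 0.153, -0.273 and -0.0195), 26 members were higher and 1 lower, 4678 genes were called and Sel1l differed by -0.758 (adjusted p = 0.00262). Trend and robust variance gave 49 higher and 1 lower.

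Signs changed only for members without a call. These were Rpl7a (-0.034), Rps6 (0.097), Rpl39 (0.011) and Rpl39l (0.059) after quantile normalization, Rpl38 (-0.0061), Rpl35 (-0.015), Rpl21 (-0.041), Rpl7a (-0.045) and Rpl28 (-0.048) after centring, Rpl39l (0.088) after cyclic loess, Rplp1 (-0.12) and Rpl21 (-0.083) as the mean of their features, and, leaving out 1 array, Rpl7l1 (-0.035 to 0.030), Rpl32l (-0.089 to 0.035), Rps27l (-0.11 to 0.063) and Rpl39l (-0.14 to 0.044).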
